A study of Mus musculus with 15 samples.

Results

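MiR-21 was measured in mouse liver grafts by 2 probes of 10 spots each on an Agilent mouse miRNA array, where the label mmu-miR-21 (without the star of the passenger strand) marks 1 of 567 mouse miRNAs. Every one of its 20 spots was well above background on all 15 arrays and none was saturated. The member was chosen by this name and not by a cutoff on its values, although earlier results of these data were known. The arrays form 5 groups of 3 male mice, 1 graft per array: syngeneic grafts taken on day 5, and allografts taken on day 5, day 8, day 14 and day 100. The question was which miRNAs change in a liver that is first attacked and later accepted by its host without an immunosuppressant. Donors of the allografts were B10.BR (H2-Kk) mice and recipients were B10.D2 (H2-Kd) mice. The strain label of the syngeneic arrays names the same allogeneic pair, so they were assigned to the syngeneic group by title, and which strain those grafts had is not given in the sources used here. Syngeneic grafts were taken only on day 5, so later allograft days have no control of their own age, and graft age cannot be told apart from the donor and host mismatch in those comparisons.

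MiR-21 is a small RNA that is cut from the hairpin of Mir21a and lowers the output of mRNAs that pair with its seed, among them those of Pdcd4 and Reck. Its gene is switched on by STAT3, AP-1 and NF-kB, and the miRNA is known for its rise after liver resection, in cholestatic and fibrotic liver, and in activated lymphocytes and macrophages. It is made by hepatocytes as well as by immune and stromal cells.

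The mature sequences below are from RefSeq (GRCm38.p6), with bases 2 to 8, the seed, in capitals. They are shown because the array reads both strands of the Mir21a hairpin, and because the mouse genome holds a pair of close relatives.
mmu-miR-21a-5p, the current name of miR-21 (chr11:86584120-86584141, minus strand): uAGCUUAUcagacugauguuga
mmu-miR-21a-3p, the current name of miR-21* (chr11:86584082-86584103, minus strand): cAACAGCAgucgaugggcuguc
mmu-miR-21b (chr3:29636768-29636790, plus strand): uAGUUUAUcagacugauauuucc
mmu-miR-21c (chr8:128278188-128278208, minus strand): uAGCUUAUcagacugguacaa
The hairpin of Mir21a (chr11:86584067-86584158) lies inside the span of Vmp1 (chr11:86583858-86683836), 209 bases from the lower end of that span. Exon and intron bounds are not given in the table used here. Counted from 1 at the 5′ end, miR-21b differs from miR-21 by C4U, which lies in the seed, and by G18A, G21U and A22C over 22 bases. MiR-21c differs by A16G, G18A, U19C, U20A and G21A over 21 bases and has the same seed. Of 1679 mature mouse miRNAs in the table, miR-21c was the only other one with the seed of miR-21. Neither miR-21b nor miR-21c is named among the mouse miRNAs of the array, and whether the miR-21 probes also bind them was not tested.

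The level of miR-21 was highest by group mean in allografts on day 5, intermediate in syngeneic grafts and in allografts on day 8 and day 14, and lowest in allografts on day 100. Levels are log2 values of the summed probe signals, after each array was scaled to the 75th percentile of the 52 miRNAs that were detected everywhere. The 3 syngeneic arrays measured 4.31, 4.77 and 5.23. Allografts on day 5 measured 5.29, 4.99 and 5.45. Allografts on day 8 measured 4.74, 4.58 and 4.92. These values show that the syngeneic grafts spread over the whole range of the allografts on day 8, and that their highest array lies among those of day 5. Allografts on day 14 measured 4.85, 4.98 and 4.55, and those on day 100 measured 3.98, 3.96 and 4.11. The 3 day 100 arrays lay below all 12 other arrays. The spread was widest in the syngeneic grafts (4.77 ± 0.46, SD, n = 3) and narrowest on day 100 (4.01 ± 0.08, SD, n = 3), while the allografts measured 5.24 ± 0.24 on day 5, 4.75 ± 0.17 on day 8 and 4.79 ± 0.22 on day 14. Spots of 1 probe on 1 array varied by a median of 4.48% (coefficient of variation).

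**Figure D1:**
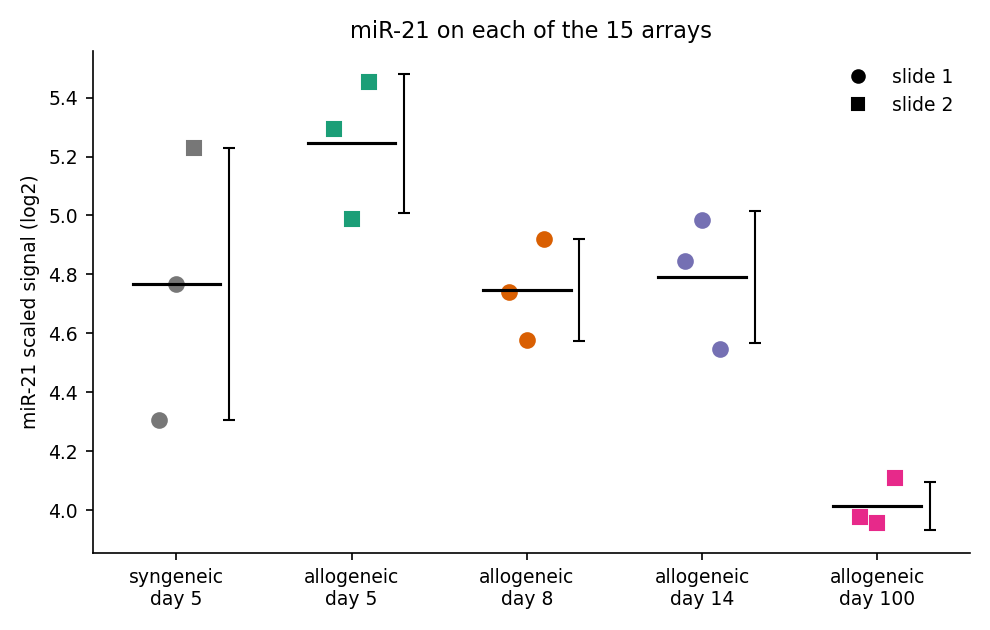
Scaled log2 signal of miR-21 on each array, by group. Points are arrays (circles on slide 1, squares on slide 2), bars are group means and whiskers are 1 SD (n = 3); the 3 day 100 arrays, from 3.96 to 4.11, sit below every other array.

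The arrays were hybridized on 2 slides. Slide 1 held syngeneic replicates 1 and 2 and all arrays of day 8 and day 14, and slide 2 held syngeneic replicate 3 and all arrays of allogeneic day 5 and day 100. Between 60 and 115 mouse miRNAs were detected per array. Replicate 1 of day 100 stood apart, with an additive error of 13.1 against 2.67 to 3.66 on the other arrays and the fewest detected miRNAs. Hepatocyte markers (miR-122, miR-192, miR-194 and miR-148a) were detected on all 15 arrays, as the tissue label states liver. The number of arrays limits the precision of every comparison.

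Over the 5 groups the level of miR-21 differed (limma moderated F = 8.36, Benjamini-Hochberg adjusted p = 0.0048). By that test 64.1% of the 103 tested miRNAs differed, so a difference over the groups was common on these arrays.

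Against the syngeneic grafts, miR-21 in allografts on day 5 stood 0.48 ± 0.22 (SE) higher on the log2 scale, or 1.39-fold, with overlapping arrays, and it did not pass the test (limma, Benjamini-Hochberg adjusted p = 0.14, 95% interval 0.01 to 0.94 before adjustment). In that comparison 18.4% of tested miRNAs were called higher and 6.8% lower. On the slide that held both groups, the 3 day 5 allografts and the single syngeneic array differed by 0.02, while without that array (syngeneic replicate 3) the difference was 0.71 and passed the test (limma adjusted p = 0.022). Without syngeneic replicate 1 it was 0.25 (limma adjusted p = 0.48), so the comparison of day 5 depended on which syngeneic arrays entered it.

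On day 8 the difference from the syngeneic grafts was -0.02 ± 0.22 (SE; limma adjusted p = 0.96, 95% interval -0.49 to 0.44), among 23.3% of tested miRNAs called higher and 17.5% lower. On day 14 it was 0.02 ± 0.22 (SE; limma adjusted p = 0.94, 95% interval -0.44 to 0.49), where 27.2% of tested miRNAs were called higher and 18.4% lower. Both intervals reach from -0.44 or lower to 0.44 or higher. With arrays scaled by the summed mouse signal, both days were called higher, by 0.77 and 0.89 (limma adjusted p = 0.030 and 0.014). Under that scaling the median of all tested miRNAs was itself 0.82 on day 8 and 0.79 on day 14, and miR-21 lay -0.06 and 0.09 from it. After quantile normalization both days were called higher by 0.72 (limma adjusted p = 0.0057 and 0.0040). MiR-21 was second brightest on every syngeneic array and brightest on every array of both days. The quantile difference is therefore the step between these ranks and does not measure the amount of miR-21.

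On day 100 miR-21 was lower than in the syngeneic grafts by 1.69-fold, a log2 difference of -0.75 ± 0.22 (SE; limma adjusted p = 0.022, 95% interval -1.22 to -0.29), and the arrays of the groups did not overlap. In the same comparison 14.6% of tested miRNAs were called lower and 16.5% higher, and the arrays did not overlap for 29.1% of them. This call depended on how arrays were scaled. With no scaling the difference was -0.19 (limma adjusted p = 0.75), with the 75th percentile over all mouse miRNAs -0.64 (adjusted p = 0.12), with the summed mouse signal 0.27 (adjusted p = 0.41) and after quantile normalization 0.00. The quantile value was fixed in advance, since miR-21 was second brightest on every array of both groups, so it cannot show a dependence on scaling. The median difference of the 103 tested miRNAs moved with the scaling too, from 0.00 as scaled here to 0.33 with no scaling and 0.76 with the summed signal. Relative to that median, the difference of miR-21 lay between -0.77 and -0.50 under the 6 scalings that divide each array by 1 number or by none, and was -0.07 after quantile normalization. As scaled here, 17 of the 102 other tested miRNAs had a lower difference than miR-21. On slide 2 alone, against the single syngeneic array there, the difference was -1.21 (limma adjusted p = 0.026), a test that assumes the lone array to vary like the others. Without replicate 1 of day 100 it was -0.74 (limma adjusted p = 0.043). The call was lost without syngeneic replicate 2 (-0.75, limma adjusted p = 0.062), syngeneic replicate 3 (-0.52, adjusted p = 0.051) or day 100 replicate 3 (-0.80, adjusted p = 0.060).

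Compared directly with each other, the allograft days differed in miR-21 only where day 100 was one of them. From day 5 to day 100 the level fell 2.35-fold, a log2 difference of -1.23 ± 0.22 (SE; limma adjusted p = 0.0030, 95% interval -1.70 to -0.76), with no overlap of the arrays. In this comparison 29.1% of tested miRNAs were called and 46.6% had arrays that did not overlap. Of the 102 other tested miRNAs, 9 had a lower difference. Both groups lie wholly on slide 2, so this comparison does not cross slides. The difference within that slide is the same subtraction of the same arrays (-1.23) and is no separate check. Relative to the median of all tested miRNAs it lay between -1.09 and -0.995 under the same 6 scalings and was -0.35 after quantile normalization. The call was lost with the summed signal (-0.53, limma adjusted p = 0.15) and with quantile normalization (-0.48, adjusted p = 0.059). The quantile value follows only the rank of miR-21, second brightest on every day 100 array and brightest or second brightest on day 5. Without replicate 1 of day 100 the difference was -1.21 (limma adjusted p = 0.012).

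Day 100 was also lower than day 14, by 1.71-fold (log2 difference -0.78 ± 0.22, SE; limma adjusted p = 0.0099), and than day 8, by 1.66-fold (log2 difference -0.73 ± 0.22, SE; limma adjusted p = 0.035), with no overlap in either. Against day 14, 51.5% of tested miRNAs were called and 65.0% did not overlap. Against day 8, 19.4% were called and 59.2% did not overlap. Of the 102 other tested miRNAs, 27 had a lower difference than miR-21 against day 14 and 21 against day 8. Relative to the median of all tested miRNAs, the difference of miR-21 lay between -0.67 and -0.53 (day 14) under the same 6 scalings. Against day 8 it lay between -0.52 and -0.46. No slide holds day 100 together with day 8 or day 14, so these differences cross slides. With slide as a block, which links the slides through the syngeneic arrays, they were -1.47 (limma adjusted p = 0.013) and -1.42 (limma adjusted p = 0.015). Slide 2 holds a single syngeneic array, replicate 3, the highest of its group (5.23). The shift to these larger values rests on it, and slide and mouse cannot be told apart there. The call against day 14 was lost in 3 of 19 alternatives (-0.78 to -0.58) and that against day 8 in 6 of 19 (-0.80 to -0.50). The call against day 8 was lost without any 1 of the 3 day 8 arrays or of day 100 replicates 1 and 2 (limma adjusted p from 0.074 to 0.11).

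Among the earlier days, day 8 was lower than day 5 by -0.50 ± 0.22 (SE; limma adjusted p = 0.20), with arrays that did not overlap, as for 55.3% of tested miRNAs, while 1.94% were called. Day 14 was lower than day 5 by -0.45 ± 0.22 (SE; limma adjusted p = 0.17), again without overlap, as for 42.7% of tested miRNAs, while 12.6% were called. With slide as a block both turned to 0.19 and 0.24, since day 5 lies on another slide than day 8 and day 14, and slide and day cannot be told apart beyond the syngeneic arrays. Day 14 and day 8 differed by 0.05 ± 0.22 (SE; limma adjusted p = 0.92), where 5.83% of tested miRNAs were called. In the order of levels, day 5 came first, followed by day 14, the syngeneic grafts and day 8, and then day 100. No neighbours in this order differed by the test except day 8 and day 100.

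**Figure D2:**
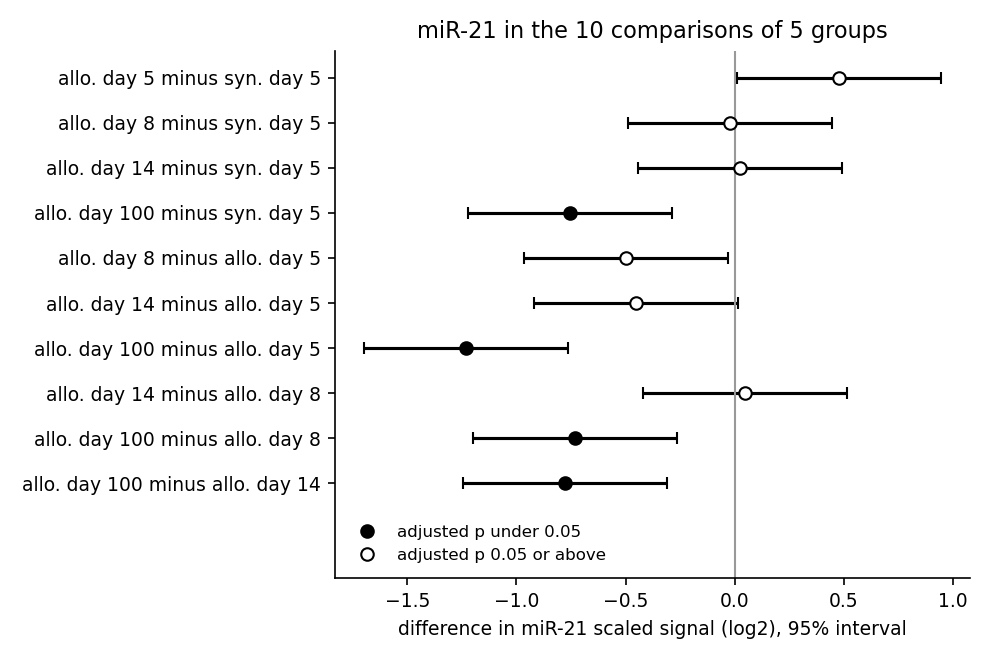
Differences in the scaled log2 signal of miR-21 for all 10 comparisons of the 5 groups, with unadjusted 95% intervals from limma. Filled points passed an adjusted p of 0.05: the 4 comparisons that hold day 100, from -1.23 to -0.73.

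Each probe of miR-21 was also fitted alone. From day 5 to day 100 the brighter probe fell by 1.19 and the dimmer one by 1.33 on the log2 scale (limma adjusted p = 0.0030 and 0.00205). Between the syngeneic grafts and day 100 the differences were -0.72 and -0.84 (limma adjusted p = 0.027 and 0.011). With every miRNA read by its brightest probe, day 100 against day 8 lost its call (-0.66, limma adjusted p = 0.051) and day 14 against day 5 gained one (-0.65, adjusted p = 0.048). The passenger strand miR-21*, read by 4 probes, was detected on 0 of 15 arrays. Of its 297 spots used over all arrays, 1 was well above background, on replicate 3 of day 14. MiR-590-5p, named on the array as a mouse miRNA and known from other mammals to have the seed of miR-21, was well above background on 0 of its 296 spots used. Whether miR-21* moved with miR-21 was therefore not measurable here.

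The share of miR-21 in the summed signal of all mouse miRNAs is the same quantity as the level scaled by the summed signal, so it is no separate support for the differences under that scaling. In syngeneic grafts the share was 19.8%, 11.5% and 23.2%. The day 5 allografts gave 35.2%, 29.9% and 26.2%, and those of day 8 gave 29.4%, 27.0% and 32.4%. For day 14 it was 34.3%, 33.8% and 28.8%, and for day 100 27.5%, 16.3% and 20.4%. All 9 allografts of day 5, day 8 and day 14 were above all 3 syngeneic grafts, while day 100 overlapped with them. On the log2 scale the mean share was higher than in syngeneic grafts by 0.80 ± 0.33 (SE) on day 5, by 0.77 ± 0.32 on day 8 and by 0.89 ± 0.32 on day 14 (two-sided exact permutation p = 0.1 for each, the smallest that 3 arrays against 3 allow). On day 100 the difference was 0.27 ± 0.38 (SE; exact permutation p = 0.6). Over the 5 groups the share differed (exact permutation test of F over 1401400 partitions, p = 0.029).

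Another signal in the denominator of these shares varied widely between arrays. MiR-720, now annotated as a tRNA fragment and no longer as a miRNA, made up 11.2%, 62.4% and 29.4% of the summed signal in the syngeneic grafts, and 2.70% to 32.3% in the allografts. On replicate 1 of day 100, negative signals of undetected miRNAs came to 54.3% of the summed signal, against 1.55% to 3.997% on the other arrays. Without miR-720 and with negative signals set to 0, the share of miR-21 was 21.3%, 28.9% and 32.1% in syngeneic grafts. The allografts gave 39.9%, 32.8% and 37.3% for day 5, 29.6%, 27.1% and 32.6% for day 8, 35.0%, 35.6% and 29.8% for day 14, and 19.9%, 18.8% and 21.7% for day 100. Read this way, day 5 remained above the syngeneic grafts (0.43 ± 0.20, SE, log2; exact permutation p = 0.1), but day 8 and day 14 overlapped with them (0.13 ± 0.19 and 0.30 ± 0.19). Day 100 then lay below day 5, day 8 and day 14 without overlap (-0.86 ± 0.10, -0.56 ± 0.10 and -0.73 ± 0.10; exact permutation p = 0.1 for each) and overlapped with the syngeneic grafts (-0.43 ± 0.19). This denominator was chosen after the values were seen. Over the 5 groups it gave an exact permutation p = 0.0027, against 0.068 with miR-720 alone left out of the sum and 0.072 with miR-122 left out.

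**Figure D3:**
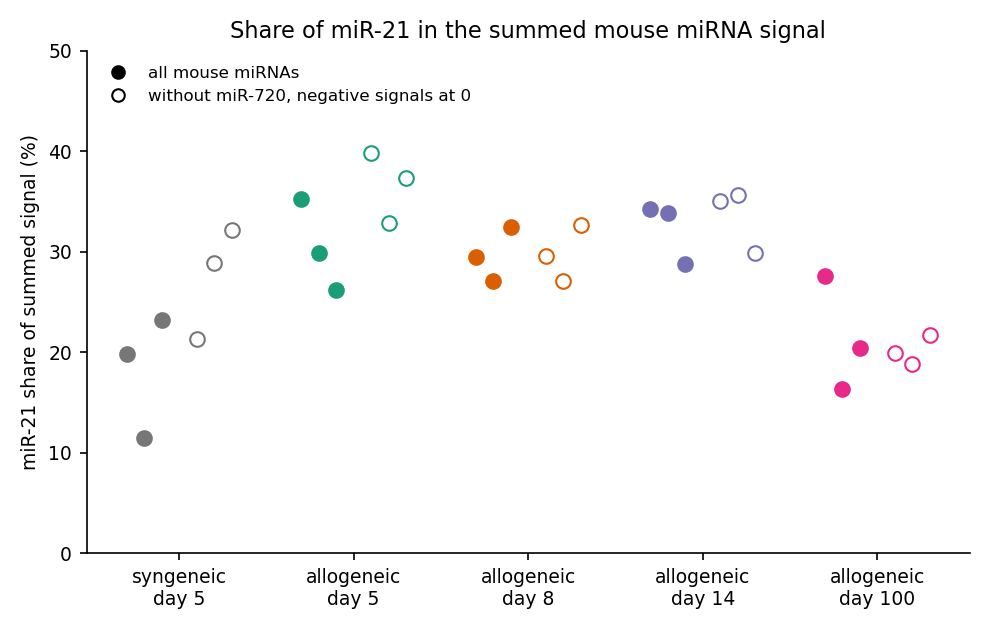
Share of miR-21 in the summed mouse miRNA signal (percent) on each array. Filled points use all mouse miRNAs and open points leave out miR-720 and set negative signals to 0; the syngeneic arrays move from 11.5 to 23.2% up to 21.3 to 32.1%, and day 100 narrows to between 18.8 and 21.7%.

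MiR-21 was also set against miR-122, the main miRNA of hepatocytes, on the same array. Such a ratio of signals of different probes has no absolute meaning, and only its change between arrays is read here. It was 0.782, 1.03 and 1.27 in the syngeneic grafts and 2.22, 1.49 and 2.05 in allografts on day 5. On day 8 it was 1.28, 1.16 and 1.59, and on day 14 it was 2.62, 2.25 and 1.61. On day 100 it was 0.764, 0.657 and 0.893. Day 5 and day 14 were thus above all syngeneic arrays, and day 100 was below every allograft of the earlier days.

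The mean log2 ratio was higher than in syngeneic grafts by 0.91 ± 0.27 (SE) on day 5 and by 1.07 ± 0.29 on day 14 (exact permutation p = 0.1 for each). On day 8 it was higher by 0.40 ± 0.24 and on day 100 lower by -0.40 ± 0.24 (exact permutation p = 0.2 for each), with overlapping arrays. From day 14 to day 100 it fell 2.77-fold and from day 5 to day 100 2.47-fold. Over the 5 groups the exact permutation p was 0.00080. With miR-192, another hepatocyte miRNA, in place of miR-122, the log2 ratio differed from that of the syngeneic grafts by 0.69 (day 5), 0.45 (day 8), 0.99 (day 14) and -0.32 (day 100).

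**Figure D4:**
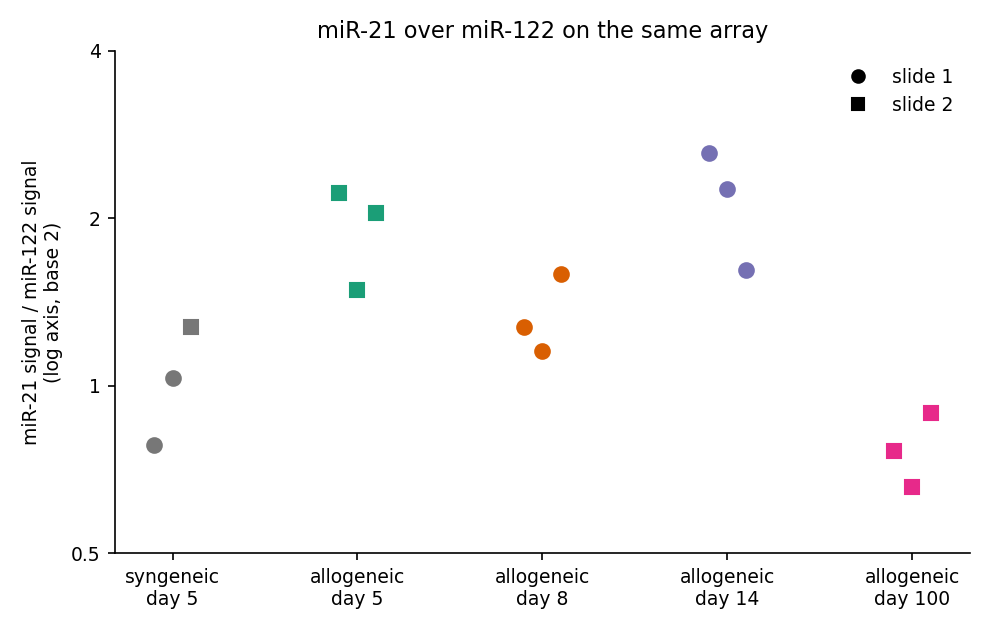
Signal of miR-21 divided by that of miR-122 on the same array (log axis, base 2), by group; circles are arrays of slide 1 and squares of slide 2. Day 14 reaches 2.62 and day 100 lies between 0.657 and 0.893.

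On day 14, when this ratio was highest by group mean, scaled levels of hepatocyte miRNAs were lower than in syngeneic grafts, while that of miR-21 differed by 0.02. All 4 hepatocyte markers were called lower on day 14, with a median log2 difference of -1.02 beside 0.07 over all tested miRNAs. MiR-148a was lower by -1.19, miR-122 by -1.05, miR-194 by -0.99 and miR-192 by -0.97 (limma adjusted p = 7.9e-05 for each). The calls of these markers are given under this scaling only. As a share of the summed signal, miR-122 on day 14 (13.1% to 17.8%) lay within the syngeneic range (11.1% to 25.3%). That sum includes miR-720. Unscaled miR-122 signals of these groups overlapped as well. On day 5, 3 of the 4 were called lower (median -0.45), on day 8 all 4 (median -0.45), and on day 100, 2 of 4 (median -0.39). Over all tested miRNAs the share called lower was 6.8%, 17.5% and 14.6% on these days (18.4% on day 14), with medians of 0.12, 0.14 and 0.00. Their summed scaled signal ranged from 30.1 to 35.7 in syngeneic grafts, from 21.9 to 25.9 on day 5, from 22.9 to 24.7 on day 8, from 13.4 to 17.1 on day 14 and from 23.3 to 27.8 on day 100. In RNA from whole tissue, fewer cells of a type and less of the RNA per cell cannot be told apart.

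Leukocyte miRNAs were read beside miR-21. Of 6 markers 5 were tested, and miR-150 was detected on no array. All 5 were called higher on day 5 (median log2 difference 1.89) and on day 14 (median 1.98), 3 on day 8 (median 1.79, or 1.53 with miR-155 taken at its lower bound) and 2 on day 100 (median 0.18). Over all tested miRNAs, in the order of the days, 18.4%, 23.3%, 27.2% and 16.5% were called higher, with median differences of 0.12, 0.14, 0.07 and 0.00. MiR-342-3p, found in lymphocytes, was higher on day 14 by 4.04 and miR-223, a myeloid miRNA, by 2.38 (limma adjusted p = 4.2e-09 and 7.9e-06). In the syngeneic grafts miR-342-3p was detected on 1 of 3 arrays and lay at the floor for low signals on 2, so the size of its difference depends on that floor. MiR-142-5p, found in blood cells, was higher by 1.98 (limma adjusted p = 0.0033). It was detected on 2 of 3 syngeneic arrays with its lowest value at the floor, and the median differences of day 5 and day 14 are its own. MiR-142-5p, miR-155 and miR-342-3p were detected on every array of a group only in allografts of day 5, day 8 and day 14. They entered the test through these groups, where they are high. MiR-155, made by activated lymphocytes and macrophages, was detected on 0 of 3 syngeneic arrays and was at least 3.21-fold higher on day 14 (limma adjusted p = 7.9e-05). The summed scaled signal of the 5 markers ranged from 0.687 to 1.76 in syngeneic grafts, from 3.06 to 8.18 on day 5, from 2.24 to 2.67 on day 8, from 3.10 to 4.26 on day 14 and from 1.18 to 1.53 on day 100. From day 5 to day 100 all 5 were called lower, as miR-21 was, with a median of -1.06 beside -0.14 over all tested miRNAs, of which 21.4% were called lower. The part of these cells in the fall of miR-21 was not tested.

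**Figure D5:**
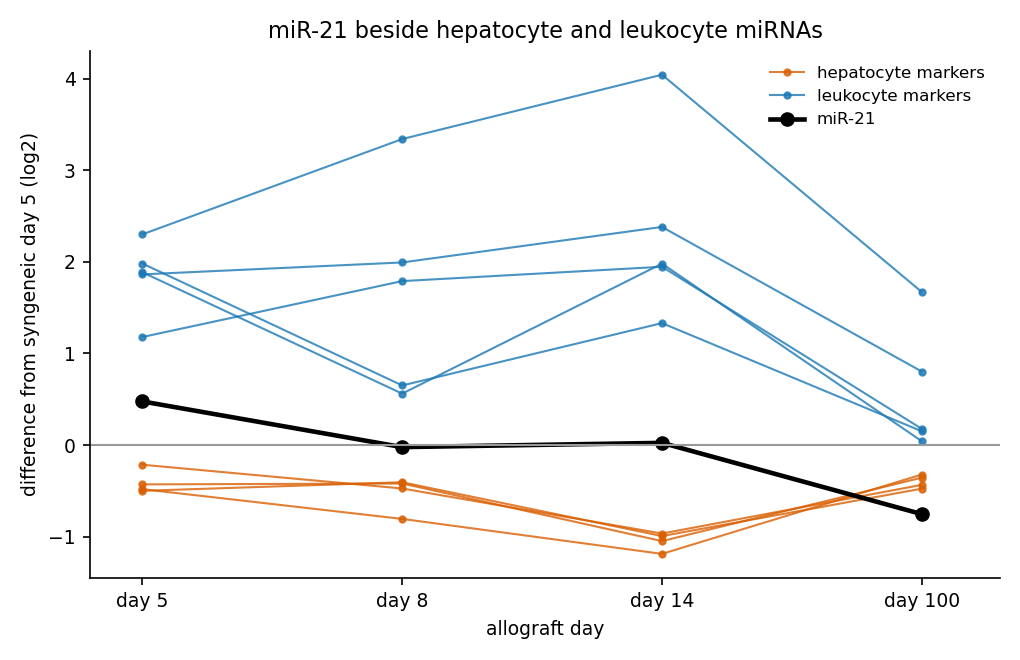
Log2 difference from syngeneic day 5 on each allograft day (the categories are not spaced to scale) for miR-21 (black), the 4 hepatocyte markers miR-122, miR-148a, miR-192 and miR-194 (orange) and the 5 leukocyte markers miR-142-3p, miR-142-5p, miR-155, miR-223 and miR-342-3p (blue). MiR-155 is undetected in syngeneic grafts and drawn against the floor, as miR-342-3p is on 2 of 3 syngeneic arrays and miR-142-5p on its lowest one. On day 14 the blue lines lie between 1.33 and 4.04 and the orange ones between -1.19 and -0.97, with miR-21 at 0.02.

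Markers of other cells were sparse. Of 5 stromal markers 4 are named on the array and 1 was tested, miR-214, which was called on no day against the syngeneic grafts, and miR-145 was detected on no array. Of the endothelial pair only miR-126-3p was tested, and it was not called on any day against the syngeneic grafts, with differences of 0.24 to 0.32. Of 3 erythroid markers 2 were tested. MiR-451 was called higher on day 5, day 8 and day 14 (0.99, 1.21 and 1.55), and miR-144 was called lower on day 8, where it was detected on 0 of 3 arrays and was at least 2.97-fold lower (limma adjusted p = 0.018).

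A list of 15 miRNAs tied to liver injury and regeneration gives the neighbourhood of miR-21. All are named on the array, and 12 besides miR-21 were tested. Against the syngeneic grafts, those called higher numbered 1 of the 12 on day 5, 4 at day 8, 4 at day 14 and 1 at day 100. Those called lower numbered 0, 3, 2 and 2 at the same times. Over all tested miRNAs 18.4%, 23.3%, 27.2% and 16.5% were called higher and 6.8%, 17.5%, 18.4% and 14.6% lower, so these counts were near the background. Their median difference was 0.11, 0.33, 0.12 and 0.10 on these days, beside 0.12, 0.14, 0.07 and 0.00 over all tested miRNAs.

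On day 14 the widest differences in this list belonged to miR-155, given above, and to miR-33, which lies in a gene of sterol control and was lower by -1.55 (limma adjusted p = 0.034), with detection on 2 of 3 arrays and 2 of 3 values at the floor set for low signals. MiR-378, from a gene of mitochondrial metabolism, stood 1.13 higher without passing the test (limma adjusted p = 0.051). MiR-34a, a target of p53, was higher on day 14 by 0.95 (limma adjusted p = 0.014) and on day 100 by 0.85 (limma adjusted p = 0.033). The 2 called lower on day 100 were miR-29b and miR-29c, which act on collagen mRNAs, by -0.87 and -0.67 (limma adjusted p = 0.022 and 0.014), while miR-29a of the same family stood 0.55 higher (limma adjusted p = 0.054). From day 5 to day 100, 1 of the 12 was called lower beside miR-21, namely miR-155 (-1.002, limma adjusted p = 0.017), and 0 were called higher, beside 21.4% lower and 7.77% higher over all tested miRNAs. On day 100 miR-155 was detected on 1 of 3 arrays and its lowest value was at the floor, so the size of its difference depends on that floor. The miR-34a difference was 0.39 (limma adjusted p = 0.34).

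The 5 tested miRNAs whose scaled log2 signal followed miR-21 most closely over the 15 arrays were miR-19b (Pearson r = 0.90), miR-20a (0.90), miR-301a (0.85), miR-20b (0.84) and miR-19a (0.84). The sixth had r = 0.74, and the median over the 102 other tested miRNAs was 0.18. These correlations describe 15 arrays that share slides, groups and scaling, and carry no p. Their mature sequences are shown, since they fall into families by seed (capitals), none of which is the seed of miR-21.
mmu-miR-19a-3p (chr14:115044048-115044070, plus strand): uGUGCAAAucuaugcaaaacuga
mmu-miR-19b-3p (chr14:115044358-115044380, plus strand, with a second copy at chrX:52741991-52742013, minus strand): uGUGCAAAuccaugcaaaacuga
mmu-miR-20a-5p (chr14:115044183-115044205, plus strand): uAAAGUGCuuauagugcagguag
mmu-miR-20b-5p (chrX:52742159-52742181, minus strand): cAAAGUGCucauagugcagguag
mmu-miR-301a-3p (chr11:87113054-87113076, plus strand): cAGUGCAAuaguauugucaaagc
MiR-19a and miR-19b share a seed, as do miR-20a and miR-20b. The array uses older names without an arm, and each was taken as the arm named here.

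All 5 were highest in allografts on day 5 and lowest on day 100 by group mean. They were picked for following miR-21 over these same arrays, so this order and the differences below partly restate the choice. MiR-20a measured -3.04 ± 0.36 (SD, n = 3) in syngeneic grafts and -2.29 ± 0.13 in allografts of day 5, followed by -2.64 ± 0.18 (day 8), -2.75 ± 0.32 (day 14) and -3.48 ± 0.25 (day 100). Unlike miR-21, it was called higher on day 5 than in the syngeneic grafts (0.75, limma adjusted p = 0.022), and so was miR-20b (1.16, limma adjusted p = 0.0071). Whether these differences exceed that of miR-21 was not tested. From day 5 to day 100 the log2 difference was -1.01 for miR-19b, -1.19 for miR-20a and -1.50 for miR-20b (limma adjusted p = 0.0090, 0.0030 and 0.0030). MiR-20b was detected on 1 of 3 arrays both in syngeneic grafts and on day 100, so its differences are against values mostly not well above background. MiR-301a and miR-19a were detected on 0 of 3 arrays on day 100 and were at least 2.50-fold and 2.39-fold higher on day 5 (limma adjusted p = 0.0034 and 0.0030). MiR-20b and miR-301a were detected on every array of a group only in allografts of day 5, day 8 and day 14, and miR-19a only on day 5 and day 14. They entered the test through these groups, of which day 5 is the highest, so their calls on day 5 partly restate this filter. Within groups, from deviations of arrays from their group means, r was 0.84 for miR-19b, 0.78 for miR-20a, 0.69 for miR-301a, 0.70 for miR-20b and 0.83 for miR-19a. The likeness depended on how arrays were scaled. Without scaling r was between 0.75 and 0.95, and after quantile normalization between -0.10 and 0.63, with 0 of these 5 among the 5 closest. Quantile normalization gives the brightest signals of every array the same values, and miR-21 was the brightest or second brightest miRNA on all 15 arrays.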

How the data were processed

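The authors hybridized Cy3-labeled total RNA of 15 grafts to Agilent mouse miRNA arrays (1 color) and deposited the intensity of each spot from Agilent Feature Extraction 9.5.1.1 (per the file headers), background-subtracted, linear and not normalized between arrays. The deposited table of log2 values was not used here. Here, spots flagged as outliers were left out, spots were averaged per probe and probes summed per miRNA. Detection of a miRNA required 1 probe with a share of 0.5 or more of its spots well above background. For scaling, each array was divided by its own 75th percentile, taken across the 52 miRNAs that all arrays detected, and low values were set to 0.0270 (-5.21 as log2, 8.28% of tested values). After log2, the 103 mouse miRNAs with detection throughout some group of 3 were fitted with 1 mean per group in limma 3.58.1 (R 4.3.3), with Benjamini-Hochberg adjustment within each comparison and a threshold of 0.05. Shares and ratios were compared by exact permutation tests on log2 values (Python 3.11.15, numpy 2.4.6, pandas 2.3.3, scipy 1.17.1), and figures were drawn with matplotlib 3.10.9. A fold against a group without detection is a bound, computed against the lowest signal of a detected probe per array or the miRNA's own signal, whichever was higher.

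Groups and replicate numbers came from the sample titles. The groups have 3 mice each, so p-values measure the spread between mice within groups, which limma shares over the groups. Only the syngeneic group spans both slides, so its spread also holds any difference between slides. A p-value of a comparison across slides does not measure that difference. No 2 arrays held identical values. Named miRNAs were miR-21, miR-21*, the 5 most alike by Pearson correlation, and up to 4 members per list with the widest difference on day 14. Others, and the rest of each count, were named after their values were seen. The member and the lists were chosen with earlier results of these data known. Alternatives were other scalings, probe summaries, filters, floors, moderation, normexp on median intensities (offset 50; the files hold no mean), the methods' t-test, slide and replicate number as blocks, and each array left out. The fit was tested on simulated data.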

Additional observations from a re-analysis of the deposited data

Results flagged for a closer look

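The level of miR-21 differed between allograft days in direct comparisons by limma with Benjamini-Hochberg adjustment. Day 100 was lower than day 5 by a log2 difference of -1.23 (adjusted p = 0.0030), lower than day 8 by -0.73 (adjusted p = 0.035) and lower than day 14 by -0.78 (adjusted p = 0.0099). All 3 day 100 arrays were below all arrays of the other day in each case. These are the values already given above, marked because the same graft type differs between days.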

How the results depend on the processing

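The call that miR-21 was lower on day 100 than on day 5 held in 18 of 20 alternatives besides leaving out arrays. Some of these, such as the slide and replicate blocks and the fit within the slide, cannot change this difference, only its test. The fall was -0.48 after quantile normalization and -0.53 with arrays scaled by summed signal, both without a call. Quantile values follow only the rank of miR-21, brightest or second brightest on every array, so the quantile differences given here restate ranks. Differences of day 100 from the syngeneic grafts lost the call with the 75th percentile over all mouse miRNAs (-0.64), quantile normalization (0.00) and no scaling (-0.19), turned to 0.27 with the summed signal, and lost it at -0.75 without a filter on dim miRNAs, with only the groups compared and with the methods' t-test once adjusted by Benjamini-Hochberg. Against day 8, day 100 lost the call at -0.55 (percentile over all), -0.80 (no scaling), -0.66 (brightest probe), -0.50 (summed signal) and -0.73 (no filter, or only miRNAs detected on all arrays). Against day 14 it lost the call at -0.58 (percentile over all), -0.62 (summed signal) and -0.78 (no filter). Over the 5 groups F was 3.98 (percentile over all) and 8.30 (no filter), without a call. The fits without a filter adjust over all 567 miRNAs, and the fits of 2 groups have fewer arrays. The cause of the other changes was not tested.

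Differences near 0 changed sign or call. Those after quantile normalization again restate the ranks of miR-21. Day 5 against the syngeneic grafts was called at 1.02 with no scaling. Day 8 against them turned to 0.72 (quantile), 0.61 (no scaling), 0.10 (mean log2 of probes), 0.11 (normexp), 0.77 (summed signal), 0.13 (summed signal without miR-720) and 0.21 (slide as a block, and within the slide), with a call for quantile and the summed signal. Day 14 against them was called at 0.72 (quantile) and 0.89 (summed signal), and turned to -0.051 (percentile over all), -0.066 (brightest probe) and -0.063 (total signal of the software). Day 8 against day 5 turned to 0.24 (quantile) and 0.19 (slide as a block), and passed the methods' t-test unadjusted at -0.50. Day 14 against day 5 turned to 0.24 (quantile), 0.092 (summed signal) and 0.24 (slide as a block), and was called at -0.65 with the brightest probe. Day 14 against day 8 turned to -0.022 (brightest probe) and -0.0014 (total signal of the software).

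The log2 share of miR-21 differed from the syngeneic grafts by 0.42 on day 5 without miR-720 in the sum, 0.43 with negative signals at 0 as well and 0.38 with slide as a block or within the slide. On day 8 it was 0.11 and 0.13, and on day 14 0.28 and 0.30, without miR-720 and with negative signals at 0 as well. On day 100 it was -0.15 with normexp, -0.21 without miR-720, -0.43 with negative signals at 0 as well and -0.15 with slide as a block or within the slide. Over the 5 groups the share had F = 2.64 without miR-122 and 2.96 without miR-720, neither past the exact permutation test's threshold. The log2 ratio to miR-122 with slide as a block or within the slide was 0.57 on day 5 and -0.73 on day 100. MiR-21* had a spot above background on 1 array, and 0 of the 5 most alike miRNAs stayed after quantile normalization. Summed-signal scalings and sums without miR-720 or with negative signals at 0 were chosen after seeing the data.

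Without 1 array at a time, the difference ranged from 0.25 to 0.71 (day 5), -0.25 to 0.21 (day 8), -0.21 to 0.26 (day 14) and -0.98 to -0.52 (day 100) against the syngeneic grafts. Between allograft days it ranged from -1.36 to -1.13 (day 100 against day 5), -0.82 to -0.64 (day 100 against day 8), -0.90 to -0.68 (day 100 against day 14) and -0.050 to 0.17 (day 14 against day 8). Day 100 against the syngeneic grafts lost its call without syngeneic replicate 2 (-0.75) or 3 (-0.52) or day 100 replicate 3 (-0.80), and day 5 against them gained one without syngeneic replicate 3 (0.71). A lone array left in a within-slide group is assumed to vary like the others.

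Replicate numbers did not pair the samples: 9 of 30 same-numbered pairs had deviations correlated over 0.1 (median -0.05). Every group holds the same replicate numbers, so a block on them cannot change a difference, only its test. For day 100 against day 5 (-1.23) that test gave a limma adjusted p = 0.0034, and no call changed.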
